A study of Homo sapiens with 2 samples.

Results

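The genes described here make, fold, check and ship proteins of the secretory pathway, and they were chosen by name from a list of 56 chaperones, translocon subunits, glycosylation enzymes, degradation factors, coat proteins and stress regulators of the endoplasmic reticulum (ER). All 56 were found among the 12014 listed rows, which hold 12007 gene symbols, and all 56 had a mean FPKM of at least 1, as did 10702 symbols in all. The RNA came from ACHN, a human cell line derived from renal cell carcinoma. One line (shKIAA1429) had been infected with lentivirus carrying an shRNA against KIAA1429, a subunit of the complex that writes N6-methyladenosine on mRNA, and the other (shNC) with lentivirus carrying a control shRNA, and both were kept under puromycin to give stable lines. The labels call the first line a knockout, whereas the study's methods describe an shRNA knockdown, and which of the study's KIAA1429 hairpins was sequenced is not given in the sources used here. There was 1 library per group, so no difference has a replicate check, no test was run and no p-value is given.

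Proteins that enter the ER pass through the Sec61 channel, receive N-glycans from the oligosaccharyltransferase, fold with the help of chaperones and disulfide isomerases, and leave in COPII vesicles. Those that fail to fold are drawn back to the cytosol and degraded. When unfolded proteins build up, the sensors IRE1 (gene ERN1), ATF6 and PERK start the unfolded protein response (UPR). IRE1 splices XBP1 mRNA into the form that encodes an active transcription factor, cleaved ATF6 enters the nucleus, and PERK slows translation while ATF4 protein is made in greater amount. Values per gene do not separate spliced from unspliced XBP1 mRNA, nor do mRNA levels show cleavage of ATF6 or translation of ATF4.

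Values are FPKM, fragments scaled to gene length and library size. A change is the log2 ratio of the shKIAA1429 to the shNC value after 1 FPKM was added to each, and it comes out too small for genes at low levels. A change past 0.5 on this scale in either direction is called higher or lower below. KIAA1429, listed as VIRMA, measured 3.92 FPKM in shNC cells against 3.22 FPKM in shKIAA1429 cells, or 82.1% of control. Its log2 change of -0.22 did not pass the limit of 0.5, so the targeted gene itself does not count as lower here. The 13 mitochondrial genes took 42.2% of all listed FPKM with shNC and 34.6% with shKIAA1429, while the sum over all remaining genes was 163587 and 163171. Bringing both libraries to the same sum of 1000000 therefore raised the median change of all genes from 0.06 to 0.24. The limit of 0.5 was counted from 0 and not from the median of all genes, which is given beside the changes. The 10 markers fixed for a renal epithelial line were all listed and went both ways, from a log2 change of -1.14 for LHX1 to 0.68 for PAX8. They summed to 1033 FPKM with shNC against 835 FPKM with shKIAA1429, VIM alone being at 368 and 228 FPKM. Of the markers of other cell types, 0 of 4 endothelial, 0 of 3 hepatocyte, 1 of 3 neuronal and 2 of 5 fibroblast genes were listed. Of the leukocyte genes, CD68 and LYZ were listed, at 3.87 and 3.93 FPKM with shNC and 2.06 and 0.154 FPKM with shKIAA1429, and PTPRC and CD3E were not.

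Many of these genes carry a known promoter element, and the stretches that hold one are shown first because the elements are read by the transcription factors whose own mRNAs are among the 56 genes. The ER stress response element (ERSE, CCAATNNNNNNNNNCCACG) is bound by ATF6 and XBP1 together with NF-Y, and ERSE-II (ATTGGNCCACG) is a shorter relative. Both strands were searched in RefSeq windows of GRCh38.p14 that run from 250 bases before to 50 bases after each gene's start, and 51 of the 56 genes had such a window. Capitals mark the element, and each stretch is written along its gene's strand, so that an element on the other strand reads as CGTGG first.
HSPA5 (ERSE, chr9:125241371-125241429, minus strand): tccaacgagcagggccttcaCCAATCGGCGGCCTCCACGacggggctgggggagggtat
HERPUD1 (ERSE-II, chr16:56932025-56932035, plus strand): ATTGGGCCACG
XBP1 (ERSE, chr22:28800603-28800621, minus strand): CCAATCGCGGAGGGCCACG
HYOU1 (ERSE-II at both ends, chr11:119057254-119057410, minus strand): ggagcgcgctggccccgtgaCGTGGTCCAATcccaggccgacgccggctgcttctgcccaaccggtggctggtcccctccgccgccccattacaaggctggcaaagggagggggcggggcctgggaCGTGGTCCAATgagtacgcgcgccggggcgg
CRELD2 (ERSE, chr22:49918534-49918592, plus strand): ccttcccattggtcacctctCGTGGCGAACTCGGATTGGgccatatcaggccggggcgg
CALR (ERSE, chr19:12938364-12938422, plus strand): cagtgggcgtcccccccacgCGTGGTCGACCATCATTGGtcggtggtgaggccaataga
SDF2L1 (ERSE-II, chr22:21642094-21642144, plus strand): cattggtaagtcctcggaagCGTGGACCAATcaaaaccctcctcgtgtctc
HSP90B1 (ERSE, chr12:103930216-103930234, plus strand): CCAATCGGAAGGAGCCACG
PDIA6 (ERSE, chr2:10812853-10812871, minus strand): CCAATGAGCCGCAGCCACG
CANX (ERSE, chr5:179698778-179698796, plus strand): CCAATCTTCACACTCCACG

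An ERSE match was found in the windows of 7 of the 51 genes (13.7%), against 0.0916% of the 27305 genes with a window and 0.171% of the 9350 of them that the files list. HSP90B1 held a further match on its other strand. ERSE-II was found in 3 of the 51 genes (5.88%), against 0.0696% of all genes and 0.139% of listed genes. The UPR element bound by XBP1 (UPRE, TGACGTGG) was found in 8 genes (15.7%), against 0.927% of all genes and 1.28% of listed genes. The 8 were HYOU1, SEC62, SSR3, SSR4, VCP, UBE2J1, SEC24A and SEC23A, and the match in HYOU1 overlaps its first ERSE-II, while that in SEC23A lies after the gene's start. The C/EBP-ATF element (TGATGCAA), which ATF4 binds, was found in HERPUD1 only among the 51, a share of 1.96% against 1.08% of all genes and 0.642% of listed genes. Genes and elements were both chosen as known parts of this pathway, so an excess of matches can follow from that choice and is not a result of these data. The matches are letters in a window, and binding was not measured. SEC24D, DERL1, PDIA3, RPN1 and STT3B had no window.

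The genes that carry an ERSE or ERSE-II did not share a direction. HSPA5, with its ERSE at position -66 from the start, had a log2 change of 1.08, and HERPUD1, XBP1 and HYOU1 had changes of 0.84, 0.80 and 0.58. CANX, with its ERSE at position -151, had a change of -0.58, and PDIA6 and HSP90B1 had changes of -0.15 and 0.01. Of the 10 genes with either element, 4 were higher and 1 lower, with a median change of 0.22. Of the 41 genes whose windows held neither, 10 were higher and 0 lower, with a median of 0.13. Of all 10702 genes, 9.9% were higher and 6.12% lower. Whether the elements bear on these changes was not tested. The largest change among the 56, that of SSR1, was in a gene with none of the elements in its window.

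**Figure D1:**
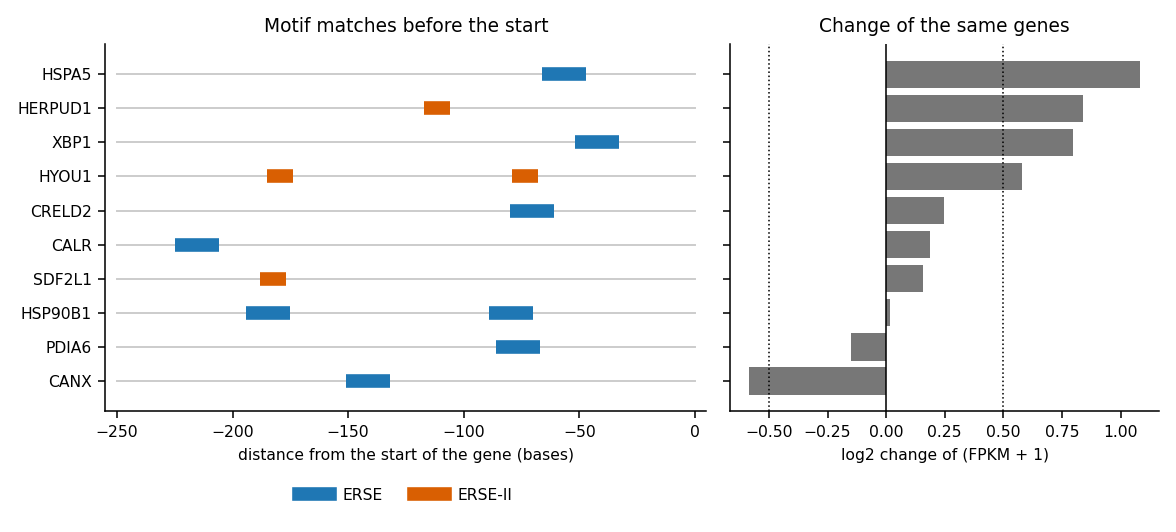
The left panel marks where ERSE (blue) and ERSE-II (orange) matches lie before the start of 10 genes, in bases, and the right panel shows the log2 change of (FPKM + 1) of the same genes as bars from 0, with dotted lines at 0.5 in both directions. The bars run from 1.08 for HSPA5 to -0.58 for CANX, and every gene carries a match.

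Among all 56 genes, 14 were higher with shKIAA1429 (25%), where 9.9% of the 10702 genes were higher, and 1 was lower (1.79%), where 6.12% of all genes were lower. The 14 were HSPA5, DNAJB9, DNAJC3, HYOU1, MANF, SEC61A1, SEC61G, SEC62, SSR1, SEL1L, HERPUD1, XBP1, ATF6 and DDIT3, and the 1 was CANX. Past a change of 1 there were 2 higher genes, HSPA5 and SSR1, beside 1.61% of all genes, and 0 lower genes beside 0.897%. Past 1.5 there were 0 in either direction, beside 0.383% and 0.252% of all genes. The study's own gene selection also used 1.5, but on DESeq2 fold changes and with a P limit, so it is not the same measure. The median change was 0.14 and the changes ran from -0.58 to 1.15, with 40 genes above 0 and 16 below, where all 10702 genes had a median of 0.06, with 6131 above 0 and 4571 below. The genes are well expressed as a group, and among the 38 with a mean of at least 10 FPKM there were 11 higher and 1 lower, beside 9.51% and 6.39% of all 3458 genes at that level. Together the 56 genes summed to 1444 FPKM with shNC and 1639 FPKM with shKIAA1429, or 0.883% and 1.004% of the FPKM outside the mitochondrial genes. Without HSPA5 the sums were 1364 and 1467 FPKM.

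These counts depend on the processing. With changes centred on the median of all genes there were 12 higher and 1 lower, without MANF and SEL1L, beside 7.64% and 7.69% of all genes. With the trend in GC content and transcript length removed there were 10 higher and 1 lower, without ATF6, DNAJC3, HYOU1 and SEL1L, beside 6.80% and 6.70% of all genes. With each library rescaled to a sum of 1000000 there were 17 higher and 0 lower, CANX being at -0.41, beside 23.9% and 4.59% of all genes.

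**Figure D2:**
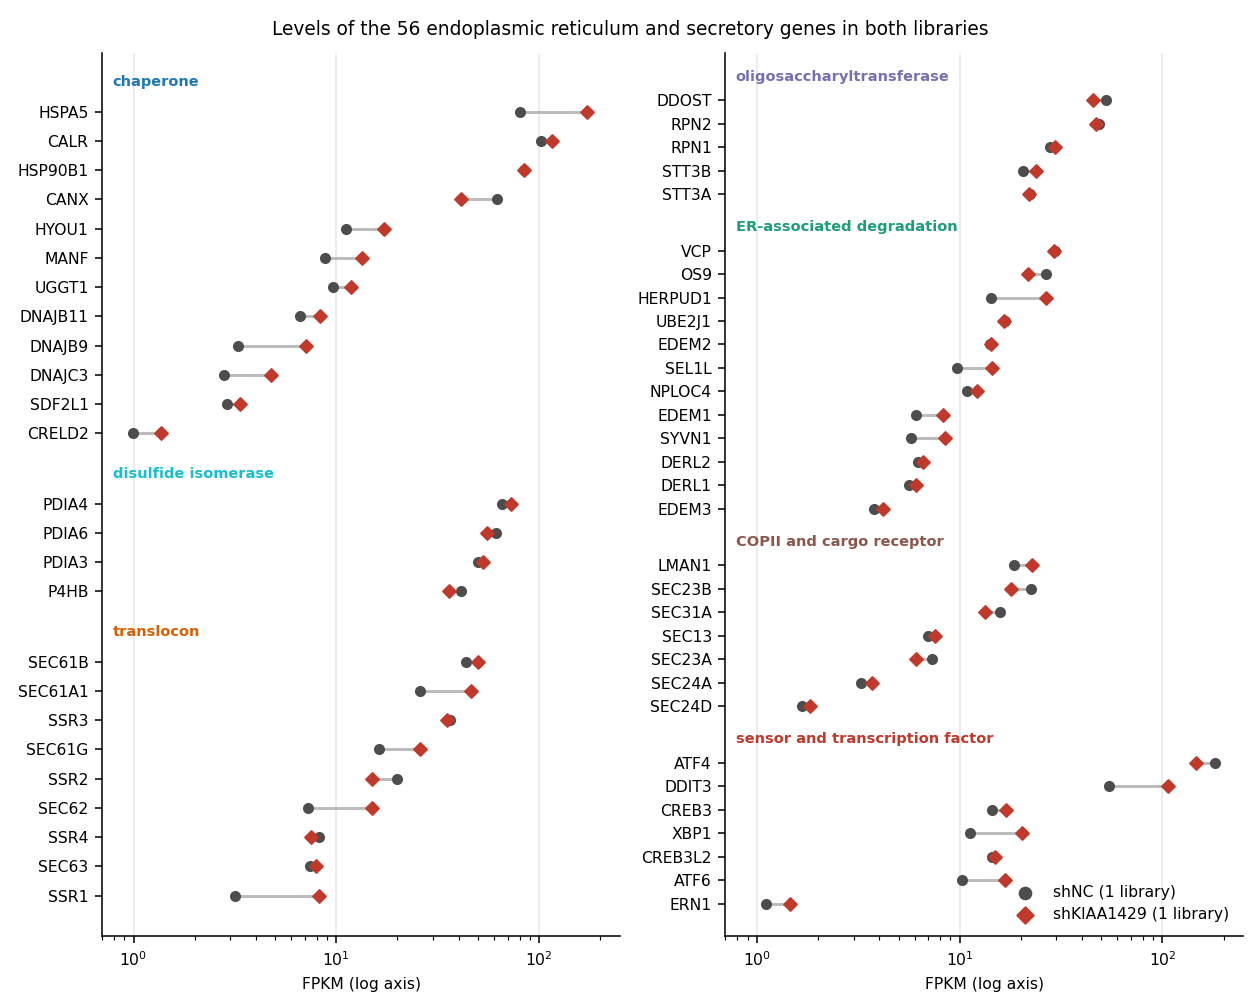
Each row is 1 of the 56 genes, ordered by level within its role, and shows its FPKM on a log axis in the shNC library (grey circle) and the shKIAA1429 library (red diamond). HSPA5 moves from 80.6 to 172 FPKM, while CANX moves the other way, from 62.0 to 41.1 FPKM.

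The chaperones held the most abundant protein folding mRNAs and also some of the rarest. Of 12 chaperones and their partners, 5 were higher and 1 was lower, where 9.9% and 6.12% of all genes were. Their median change was 0.29, and their summed level went from 374 to 481 FPKM. HSPA5 (ENSG00000044574.7_2, chr9:127997132-128003609, minus strand, gene positions being those of GRCh37 here and below) encodes BiP, the ER Hsp70 that holds the UPR sensors inactive. It was at 80.6 FPKM with shNC and 172 FPKM with shKIAA1429, a ratio of 2.13 and a log2 change of 1.08. That moved it from the fourth most abundant of the 56 mRNAs to the first, and its change stood at the 98.7th percentile of all genes. HSP90B1, the ER Hsp90 also called GRP94, was at 83.7 and 84.5 FPKM, so that the ratio of HSPA5 to HSP90B1, both per length, went from 0.964 to 2.03.

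The partners that drive BiP's cycle did not move equally. DNAJB9 (ENSG00000128590.4_2, chr7:108210012-108215294, plus strand), a J protein that recruits BiP to IRE1 and to misfolded proteins, was at 3.29 FPKM with shNC and 7.06 FPKM with shKIAA1429, a log2 change of 0.91. The ratio of HSPA5 to DNAJB9 was 24.5 and 24.3, so this pair differed by nearly the same factor between the libraries. DNAJC3 (ENSG00000102580.14_3, chr13:96329393-96447243, plus strand), the J protein p58IPK that also inhibits PERK, was at 2.80 and 4.78 FPKM, a change of 0.61. HYOU1 (ENSG00000149428.18_3, chr11:118914900-118927913, minus strand), a nucleotide exchange factor for BiP, was at 11.1 and 17.1 FPKM, a change of 0.58. MANF (ENSG00000145050.15_2, chr3:51422478-51426828, plus strand), a secreted stress factor that binds BiP, was at 8.82 and 13.4 FPKM, a change of 0.55. DNAJB11, the J protein ERdj3, was within 0.5 at 6.61 and 8.33 FPKM, and so was its partner SDF2L1 at 2.89 and 3.34 FPKM. CRELD2, a stress-induced ER protein and the lowest of the chaperone set, was at 0.997 and 1.37 FPKM, near the bottom of the range kept.

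The lectin chaperones, which bind glycoproteins during folding, went apart. CANX (ENSG00000127022.14_3, chr5:179105629-179157926, plus strand) encodes calnexin, the membrane-bound lectin, and was at 62.0 FPKM with shNC and 41.1 FPKM with shKIAA1429, a ratio of 0.662 and a log2 change of -0.58. CALR, calreticulin, its soluble relative, was at 102 and 116 FPKM. The ratio of CALR to CANX was therefore 1.64 with shNC and 2.82 with shKIAA1429. UGGT1, which re-glucosylates unfolded glycoproteins so that the lectins bind them again, was at 9.59 and 11.8 FPKM, a change of 0.28.

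The disulfide isomerases and the oligosaccharyltransferase stayed within 0.5 throughout, as did 84.0% of all 10702 genes. With so few genes, counts of 0 past the limit lie near the share over all genes. Of 4 isomerases 0 were higher and 0 lower, with a median change of -0.03 and a sum of 217 FPKM in both libraries. PDIA4 was the highest of them at 65.5 and 72.5 FPKM, and P4HB, the classical protein disulfide isomerase, the lowest at 41.1 and 36.0 FPKM. The 5 oligosaccharyltransferase subunits likewise gave 0 higher and 0 lower, with a median of -0.01 and sums of 172 and 167 FPKM. The catalytic subunits STT3A, which works beside the translocon, and STT3B, which also glycosylates sites that were skipped, were at nearly equal levels, at 22.1 and 21.9 FPKM for STT3A and 20.5 and 23.7 FPKM for STT3B, with a ratio of STT3A to STT3B of 1.08 with shNC and 0.925 with shKIAA1429. STT3A shares part of its strand with the listed gene CHEK1, and its value may depend on how reads were divided between them, which was not examined. DDOST, the highest subunit by mean with RPN2 just below it, was at 52.6 and 45.5 FPKM.

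**Figure D3:**
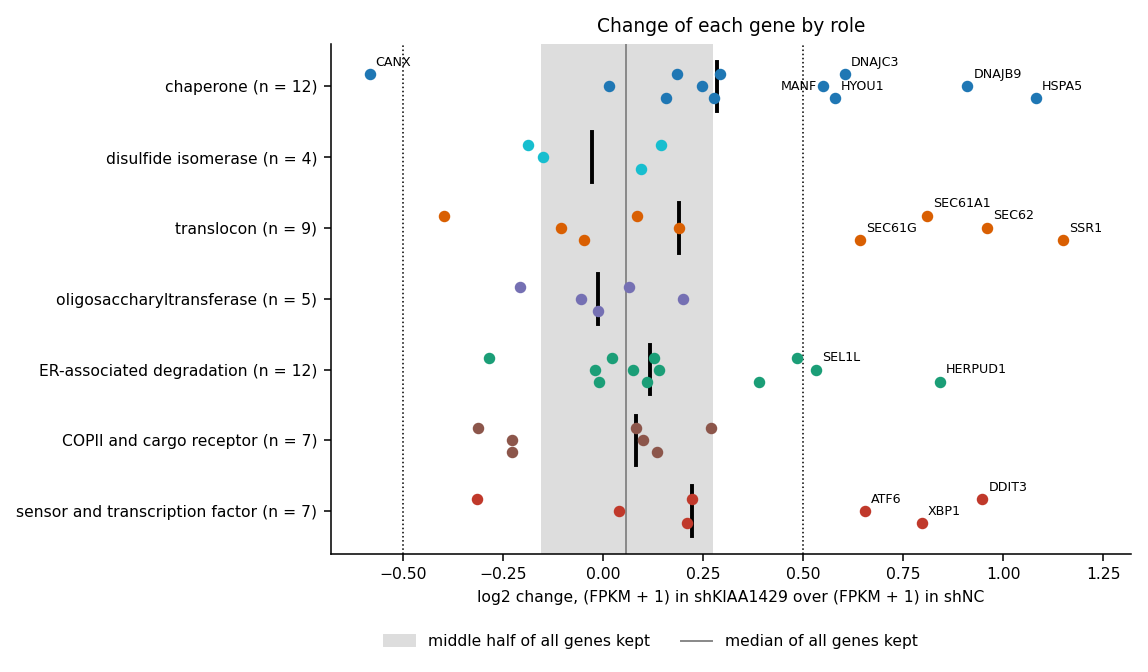
Each point is 1 gene at its log2 change of (FPKM + 1), shKIAA1429 over shNC, in rows by role, with a black bar at the median of the role, a grey band over the middle 50% of all 10702 genes and dotted lines at 0.5 in both directions. The 12 chaperones, 9 translocon subunits and 7 sensors and transcription factors hold 12 of the 14 higher genes. The 4 isomerases, 5 oligosaccharyltransferase subunits and 7 coat and cargo receptor genes hold 0, where 9.9% of all genes were higher.

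The translocon moved in part. Of 9 subunits 4 were higher and 0 lower, where 9.9% and 6.12% of all genes were. They had a median of 0.19 and sums of 168 and 210 FPKM. All 3 subunits of the Sec61 channel were above 0, and their sum went from 85.4 to 121 FPKM. SEC61A1 (ENSG00000058262.9_2, chr3:127770484-127790526, plus strand), the subunit that forms the pore, was at 25.8 FPKM with shNC and 46.0 FPKM with shKIAA1429, a log2 change of 0.81. SEC61G (ENSG00000132432.13_2, chr7:54819943-54827667, minus strand), a small subunit that clamps the pore, was at 16.2 and 25.8 FPKM, a change of 0.64. SEC61B, the other small subunit, was at 43.4 and 49.7 FPKM, a change of 0.19, so that the ratio of SEC61B to SEC61A1 fell from 1.68 to 1.08.

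SEC62 and SEC63 assist the channel with proteins that arrive after translation, and SEC62 is also a receptor for the removal of ER by autophagy. SEC62 (ENSG00000008952.16_2, chr3:169684423-169716161, plus strand) was at 7.23 FPKM with shNC and 15.0 FPKM with shKIAA1429, a log2 change of 0.96. SEC63 was at 7.40 and 7.91 FPKM, and the ratio of SEC62 to SEC63 was 0.977 and 1.895.

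The translocon-associated protein complex (TRAP) showed the widest spread within 1 complex. SSR1 (ENSG00000124783.12_3, chr6:7268539-7347679, minus strand), its alpha subunit, was at 3.15 FPKM with shNC and 8.21 FPKM with shKIAA1429, a ratio of 2.61 and, at 1.15, the largest log2 change of the 56 genes. SSR2, SSR3 and SSR4, which encode the beta, gamma and delta subunits, had changes of -0.40, -0.05 and -0.11. SSR3 was the most abundant at 36.3 and 35.1 FPKM, SSR2 was at 20.01 and 14.9 FPKM, and SSR4 was at 8.17 and 7.53 FPKM. The complex as a whole summed to 67.7 FPKM with shNC and 65.8 FPKM with shKIAA1429, and the ratio of SSR3 to SSR1 went from 11.5 to 4.28.

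In ER-associated degradation, where misfolded proteins are recognised, moved to the cytosol and tagged with ubiquitin, 2 of 12 genes were higher and 0 lower, with a median of 0.12. Of all genes, 9.9% were higher and 6.12% lower. The 2 higher genes of this role, HERPUD1 and SEL1L, belong to the complex around the ubiquitin ligase HRD1. HERPUD1 (ENSG00000051108.14_4, chr16:56965960-56978775, plus strand), which organises that complex, was at 14.3 FPKM with shNC and 26.5 FPKM with shKIAA1429, a log2 change of 0.84. SEL1L (ENSG00000071537.13_3, chr14:81937893-82000205, minus strand), the adaptor that stabilises HRD1, was at 9.71 and 14.5 FPKM, a change of 0.53. SYVN1, which encodes HRD1 itself, lay just inside the limit at 5.79 and 8.50 FPKM, a change of 0.48, and it shares part of its strand with the listed gene FAU.

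Substrate selection and extraction moved less. EDEM1, a mannosidase that marks glycoproteins for disposal, was at 6.07 and 8.27 FPKM, a change of 0.39, while its relatives EDEM2 and EDEM3 had changes of 0.02 and 0.13. EDEM2 was the most abundant of the 3 at 14.1 and 14.3 FPKM, with a ratio to EDEM1 of 2.32 and 1.73 and a ratio to EDEM3 of 3.74 and 3.41, and EDEM3, at 3.77 and 4.21 FPKM, was the lowest of all 12 genes. OS9, the lectin that hands these glycoproteins to HRD1, was at 26.7 and 21.7 FPKM, a change of -0.29. DERL1 and DERL2, which help to form the exit channel, were at 5.60 and 6.12 FPKM and at 6.205 and 6.59 FPKM, changes of 0.11 and 0.08. The 6 genes of the HRD1 complex (SEL1L, SYVN1, HERPUD1, DERL1, DERL2 and OS9) summed to 68.3 FPKM with shNC and 83.9 FPKM with shKIAA1429. VCP, the ATPase that pulls substrates out of the membrane and the most abundant of the 12 mRNAs, was at 29.4 and 29.2 FPKM. Its cofactor NPLOC4 and the ubiquitin-conjugating enzyme UBE2J1 had changes of 0.14 and -0.02.

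The COPII coat, which buds vesicles from the ER, and its cargo receptor LMAN1 gave 0 higher and 0 lower of 7. Of all genes 9.9% were higher and 6.12% lower, so counts of 0 in 7 genes lie near those shares. The 7 genes had a median of 0.08 and sums of 76.1 and 73.1 FPKM. The inner coat subunits SEC23A, at 7.31 and 6.10 FPKM, and SEC23B, at 22.5 and 17.9 FPKM, had changes of -0.23 and -0.31. SEC23B was 3.07 times as abundant as SEC23A with shNC and 2.94 times with shKIAA1429. The cargo-binding subunits SEC24A and SEC24D were low in both libraries, at 3.27 and 3.69 FPKM for SEC24A and 1.67 and 1.83 FPKM for SEC24D. Of the outer coat, SEC31A was at 15.8 and 13.3 FPKM and SEC13 at 6.98 and 7.55 FPKM. LMAN1, a lectin that carries glycoproteins such as coagulation factors to the Golgi, was the highest of these genes by mean at 18.6 and 22.6 FPKM.

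Of the 7 sensors and transcription factors, 3 were higher and 0 lower, with a median of 0.22, where 9.9% and 6.12% of all genes were. XBP1 (ENSG00000100219.16_4, chr22:29190543-29196585, minus strand), the target of IRE1 splicing, was at 11.2 FPKM with shNC and 20.2 FPKM with shKIAA1429, a log2 change of 0.80. ATF6 (ENSG00000118217.5_3, chr1:161736084-161933860, plus strand), the membrane-bound factor released by cleavage, was at 10.3 and 16.7 FPKM, a change of 0.65. ERN1, which encodes the sensor IRE1, was near the lower end at 1.11 and 1.46 FPKM, a change of 0.22. CREB3 and CREB3L2, relatives of ATF6 that are also cut from the membrane, were at 14.5 FPKM each with shNC and at 16.9 and 15.0 FPKM with shKIAA1429.

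ATF4 and DDIT3, which follow each other in the PERK branch, went in opposite directions. ATF4 (ENSG00000128272.14_2, chr22:39915700-39918690, plus strand) was the most abundant of the 56 mRNAs with shNC at 181 FPKM and was at 146 FPKM with shKIAA1429, a log2 change of -0.31 that did not pass the limit. DDIT3 (ENSG00000175197.11_3, chr12:57910371-57914300, minus strand), which encodes CHOP, a factor linked to cell death under lasting stress, was at 54.8 and 107 FPKM, a change of 0.95. The ratio of DDIT3 to ATF4 was 0.302 with shNC and 0.732 with shKIAA1429, and that of ATF4 to ATF6 was 17.7 and 8.71. ATF4, HSPA5, HSP90B1 and SRP9, named further on, have processed copies elsewhere in the genome, and how reads shared with such copies were counted is not given in the sources used here.

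**Figure D4:**
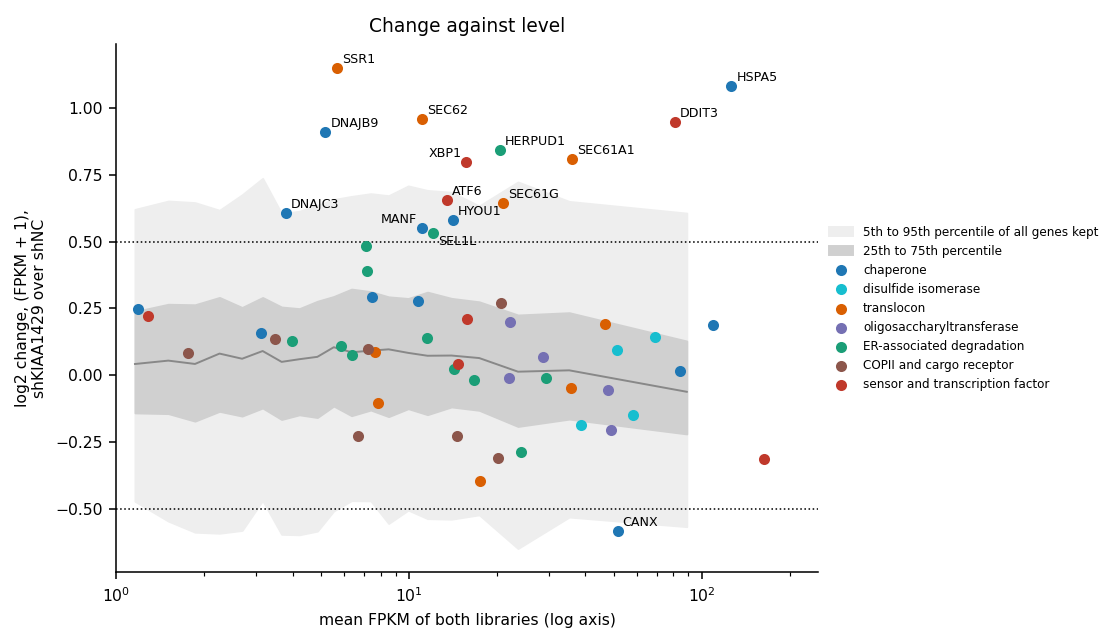
Each point is 1 of the 56 genes, coloured by role, at its mean FPKM (log axis) and its log2 change of (FPKM + 1), with the grey bands giving the 25th to 75th and the 5th to 95th percentile of all 10702 genes in bins of level and dotted lines at 0.5 in both directions. HSPA5 and DDIT3 stand at the top among the abundant genes, SSR1 and DNAJB9 among the scarcer ones, and CANX is the only gene below -0.5.

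The changes were also set out by transcription factors known to drive the genes, namely ATF6, XBP1 and ATF4. The 40 known targets used overlap the 56 genes. The 11 chaperone targets of ATF6 and XBP1 are all among the 56, so their counts restate values given above. Of the XBP1 targets, only SERP1, SEC11C, SPCS3 and SRP72 lie outside the 56. Their changes of 0.10, -0.11, 0.33 and 0.21 did not pass the limit. Of the ATF4 targets, only DDIT3 is among the 56. Whether these factors, or any sensor or signal upstream of them, had a part in the changes was not tested. The counts of the targets are to be read beside the 9.9% of all genes that were higher, the 6.12% that were lower, the 6131 of 10702 above 0 and the median of 0.06. Of 11 chaperone genes known to be driven by ATF6 and XBP1, 4 were higher and 0 lower, 10 were above 0, and the median was 0.25. Their sum went from 438 to 570 FPKM. Of 12 genes of degradation and secretion known to be driven by XBP1, 4 were higher (SSR1, DNAJB9, SEC61A1 and DNAJC3) and 0 lower, with a median of 0.36. Of 17 known ATF4 targets, 9 were higher and 1 lower, 15 were above 0, and the median was 0.60. Their sum went from 471 to 667 FPKM while the ATF4 mRNA itself went from 181 to 146 FPKM.

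**Figure D5:**
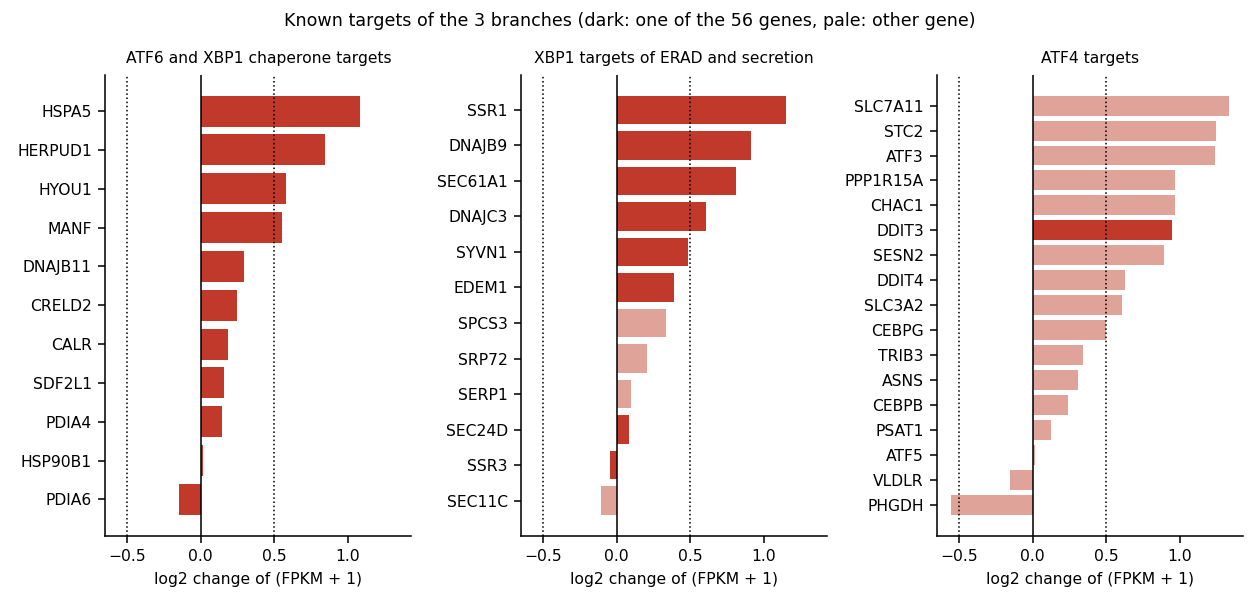
Bars give the log2 change of (FPKM + 1), shKIAA1429 over shNC, for known targets of ATF6 and XBP1, of XBP1, and of ATF4, dark for the 56 genes and pale for others, with dotted lines at 0.5 in both directions. The ATF4 targets have 9 of 17 bars past 0.5, led by SLC7A11 at 1.34, with PHGDH on the other side at -0.55.

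For a wider view, 226 other genes of the same pathway were listed by role, of which 213 had a mean FPKM of at least 1. Of these, 25 were higher (11.7%) and 8 lower (3.76%), with a median of 0.08, against 9.9% and 6.12% of all genes and their median of 0.06. The higher genes were unevenly spread over the roles. The UPR and ATF4 response held 12 higher and 2 lower of 39, chaperones and folding 6 and 0 of 24, and disulfide formation 3 and 1 of 16. Targeting and translocation held 1 and 1 of 27, N-glycan assembly 1 and 1 of 26, ER-associated degradation 1 and 1 of 33, and ER to Golgi traffic 1 and 2 of 48.

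Past a change of 1 there were 7 higher and 1 lower of the 213, beside 1.61% and 0.897% of all genes. SLC7A11, the cystine importer, was at 1.92 FPKM with shNC and 6.38 FPKM with shKIAA1429, a log2 change of 1.34, and STC2, a secreted glycoprotein induced by ER stress, was at 4.20 and 11.3 FPKM, a change of 1.24. ATF3, a stress-induced transcription factor downstream of ATF4, was at 4.98 and 13.1 FPKM, a change of 1.24. These 3 are ATF4 targets. TXNIP, an inhibitor of thioredoxin, was at 3.91 and 10.2 FPKM, a change of 1.19. BCL2L11, which encodes the pro-apoptotic protein BIM, was at 1.92 and 4.89 FPKM, a change of 1.01. HSPA13, an Hsp70 relative of microsomes, was at 7.88 and 17.6 FPKM, a change of 1.07, and SRP9, a subunit of the signal recognition particle, was at 53.2 and 108 FPKM, a change of 1.01. The lower gene was RNF185, a ubiquitin ligase of ER-associated degradation, at 14.7 and 3.71 FPKM, a change of -1.74.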

How the data were processed

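Poly(A) RNA from 1 shKIAA1429 and 1 shNC line of ACHN cells was sequenced in strand-specific, paired-end libraries. The authors deposited FPKM values per gene. The submitters' processing notes name cutadapt 1.9, HISAT2 2.0.4, StringTie 1.3.4d, DESeq2 and edgeR without their roles. The genome build is not given in the sources used here, and the files carry GENCODE identifiers with GRCh37 positions. FPKM keeps no read count, and low values showed no steps of whole reads, so the depth is unknown and no counting interval is given. Each listed gene exceeds 0.5 FPKM in at least 1 library, and genes at lower levels were not analysed here.

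A pseudocount of 1 FPKM was added, the log2 ratio of shKIAA1429 to shNC was taken per gene, and genes whose mean over both libraries was below 1 FPKM were dropped. For 7 symbols found on several rows, the most abundant row stood for the symbol. The limit was 0.5, with 1 and 1.5 beside it. FPKM were given for genes past the limit, for the highest and lowest gene of each role, for sensors and transcription factors and for paralogs and complexes, and other pathway genes were named past 1. The 56 genes, the lists and this rule were chosen with earlier results of these data known. Elements were searched in RefSeq promoter windows matched by symbol, a gene counting once if any of its windows holds a match. Printed stretches were cut back to the element where a longer one touched an exon of GENCODE 29. Alternatives were centring on the median, a pseudocount of 0.1, rescaling to 1000000 with and without the mitochondrial genes, no filter, a mean of at least 5 FPKM, summed rows, overlapping genes left out, and the GC content and length trend removed by the medians of 10 by 10 bins for the 10644 genes (99.5%) with both values. 1 marker gene is not reported here. The calling and trend removal steps were tested on simulated data, which does not show how many of the calls made here are true. Python 3.11.15, NumPy 2.4.6, pandas 2.3.3 and matplotlib 3.10.9 were used.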

Additional observations from a re-analysis of the deposited data

How the results depend on the processing

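No paired analysis was possible because each group has 1 library, and for the same reason no library could be left out in turn. Depth is unknown. The median change of the 56 genes exceeded that of all genes by 0.08, and by 0.05 to 0.10 under the alternatives. Bringing both libraries to a sum of 1000000 had the widest effect and gave 0 lower of the 56 genes. Of the 213 other pathway genes it gave 57 higher and 4 lower, where 23.9% and 4.59% of all genes were. Medians were 0.33 for the 56 genes, 0.26 for the other pathway genes and 0.81 for the ATF4 targets, while the median of all genes moved by 0.18. With a pseudocount of 0.1, 29 other pathway genes were higher and 14 lower, where 13.9% and 8.73% of all genes were. The same rescaling without the mitochondrial genes, which also makes the added 1 smaller relative to the values, gave 29 and 13, where 13.7% and 8.39% of all genes were. A limit of 1 left 2 higher and 0 lower of the 56 genes, 7 and 1 of the other pathway genes and 3 higher ATF4 targets, and a limit of 1.5 left 0 and 0, 0 and 1, and 0. Of all genes, 1.61% were higher and 0.897% lower at 1, and 0.383% and 0.252% at 1.5. Beyond the construction of each alternative, the cause was not tested. Centring on the median took MANF to 0.49 and SEL1L to 0.48. Removing the GC content and length trend took ATF6 to 0.45, DNAJC3 to 0.34, HYOU1 to 0.50, just under the limit, and SEL1L to 0.31. Changes near 0 crossed it under a scaling: PDIA6, SSR3, SSR4, STT3A, RPN2, VCP and UBE2J1 were above 0 after rescaling, and HSP90B1, EDEM2 and CREB3L2 below 0 after centring. HSPA5, SSR1, SEC62, DDIT3, DNAJB9, HERPUD1, SEC61A1, XBP1 and SEC61G passed 0.5 under every scaling, pseudocount and trend correction run.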

Other observations

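The genes below lie outside the rule for naming and were chosen after their values were seen. In oxidative folding, ERO1A, the oxidase that recharges the disulfide isomerases, was at 6.97 FPKM with shNC and 12.1 FPKM with shKIAA1429, a log2 change of 0.72. Of the thioredoxin-like enzymes, TMX1 and TXNDC12 were just past the limit at 0.52 and 0.50, TXNDC12 sharing part of its strand with the listed gene KTI12, and none of the 4 isomerases among the 56 genes passed it. SELENOF, a selenoprotein that works with UGGT1, went the other way, from 68.3 to 37.9 FPKM, a change of -0.83. GANAB, the catalytic subunit of the glucosidase that prepares glycoproteins for calnexin and calreticulin, was at 27.3 and 50.9 FPKM, a change of 0.87, while CANX had a change of -0.58. CLGN, calmegin, a relative of calnexin best known from testis, was at 0.588 and 2.11 FPKM, too low for its ratio to be read closely. UGGT2, the relative of UGGT1, was at 1.44 and 2.59 FPKM.

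Among genes of PERK and the ATF4 response, EIF2AK3, which encodes PERK, was at 2.75 and 3.70 FPKM, a change of 0.32 that did not pass the limit. PPP1R15A, the phosphatase subunit that reverses PERK's effect on translation, was at 22.9 and 45.8 FPKM, a change of 0.97, and CHAC1, which degrades glutathione, was at 6.27 and 13.2 FPKM, also 0.97. SESN2 and DDIT4, which restrain mTORC1, had changes of 0.89 and 0.63. Of the ATF4 targets that supply amino acids, the transporter subunits SLC7A11 and SLC3A2 had changes of 1.34 and 0.60. The synthetic enzymes PHGDH, PSAT1 and ASNS had changes of -0.55, 0.12 and 0.31. Among the relatives of the sensors, ATF6B had a change of -0.38, within the limit, where ATF6 was at 0.65. CREB3L1 was at 2.01 and 0.863 FPKM, a change of -0.69 at a level too low to be read closely, and CREB3 and CREB3L2 had changes of 0.21 and 0.04.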
